A study of Mus musculus with 4 samples.

Results

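Chromatin accessibility was examined over 10 genes of the Hippo pathway and its transcription factors in bone-derived mesenchymal stem cells (MSCs) of old and young mice. The genes were Tead1, Tead2, Tead3, Tead4, Yap1, Wwtr1, Lats1, Lats2, Amotl2 and Ankrd1. They were chosen by name, and every peak of the ATAC-seq table that overlapped one of them or the 5 kb upstream of its start counted as a member, which gave 77 of 117282 peaks. ATAC-seq uses a transposase that inserts adapters into open DNA, so the fragments recovered at a site measure how accessible its chromatin is. The old group held 2 samples of MSCs from mice of 18 to 22 months and the young group 2 samples from mice of 3 to 5 months. All 4 samples had been grown only at 2% O2 in αMEM with serum and antibiotics. The methods describe such cells as outgrowths of collagenase-treated hind-limb bone, sorted as CD45-/Ter-119-/Sca-1+/CD140a+. The labels do not say whether samples of 1 group came from separate mice or cultures, so the p-values below measure only the spread between these samples, which may be technical. The comparison asks which of these loci differed in accessibility between old and young MSCs.

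In the Hippo pathway, MST kinases with the adaptor SAV1 activate the LATS kinases, which phosphorylate the coactivators YAP1 and TAZ (the product of Wwtr1) and thereby keep them in the cytoplasm. When LATS activity is low, YAP1 and TAZ enter the nucleus and activate transcription through the DNA-binding TEAD factors. In mesenchymal cells the pathway is known to respond to cell shape, density and matrix stiffness, and TAZ is known for its part in the choice between bone and fat fates.

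TEAD factors recognise the letters CATTCC, or GGAATG on the opposite strand, and these letters were searched in the start regions of the members. RefSeq promoters (GRCm38.p6, 250 bases before to 50 after an annotated start) were at hand for 8 of the 10 genes, as 12 windows. Tead1 and Tead4 had no entry. The letters were found in 8 of the 12 windows and in 6 of the 8 genes. Of all 32851 promoters in the table, 14.7% held them, and of all 27025 genes 16.6% had such a promoter. All 12 member windows lay inside a peak of these MSCs, and among the 14922 genes with a promoter in a peak the share was 14.6%. The 2 Wwtr1 windows overlap and share 1 match, and the 3 Tead3 windows overlap in part. Neither Lats1 nor Tead2 had a match. The 6 windows printed here, 1 for each gene with a match, are written 5′ to 3′ on the strand of the gene, with the TEAD letters in capitals.
Ankrd1 promoter (chr19:36119795-36120094, minus strand): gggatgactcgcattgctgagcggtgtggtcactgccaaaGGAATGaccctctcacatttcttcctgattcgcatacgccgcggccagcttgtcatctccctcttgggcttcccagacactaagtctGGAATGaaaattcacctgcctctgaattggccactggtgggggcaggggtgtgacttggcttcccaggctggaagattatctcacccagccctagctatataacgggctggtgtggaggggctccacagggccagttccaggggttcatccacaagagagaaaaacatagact
Amotl2 promoter (chr9:102717554-102717853, plus strand): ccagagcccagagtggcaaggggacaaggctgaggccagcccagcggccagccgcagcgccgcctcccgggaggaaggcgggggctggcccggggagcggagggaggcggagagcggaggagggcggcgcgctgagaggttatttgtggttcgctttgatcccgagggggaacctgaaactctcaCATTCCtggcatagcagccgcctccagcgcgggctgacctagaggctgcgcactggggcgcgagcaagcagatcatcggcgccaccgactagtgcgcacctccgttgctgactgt
Tead3 promoter (chr17:28350551-28350850, minus strand): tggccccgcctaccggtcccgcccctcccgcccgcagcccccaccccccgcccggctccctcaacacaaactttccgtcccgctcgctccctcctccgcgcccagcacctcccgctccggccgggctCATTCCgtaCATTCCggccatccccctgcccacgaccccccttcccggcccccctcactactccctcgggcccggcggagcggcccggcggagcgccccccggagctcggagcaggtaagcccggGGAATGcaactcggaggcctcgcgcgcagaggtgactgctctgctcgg
Yap1 promoter (chr9:8004547-8004846, minus strand): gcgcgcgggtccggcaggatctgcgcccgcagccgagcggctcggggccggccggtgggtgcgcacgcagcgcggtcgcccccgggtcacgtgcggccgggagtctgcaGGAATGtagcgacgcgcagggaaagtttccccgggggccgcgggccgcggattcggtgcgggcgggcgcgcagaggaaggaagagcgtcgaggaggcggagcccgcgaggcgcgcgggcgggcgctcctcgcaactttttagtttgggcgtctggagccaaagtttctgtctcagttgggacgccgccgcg
Wwtr1 promoter (chr3:57575827-57576126, minus strand): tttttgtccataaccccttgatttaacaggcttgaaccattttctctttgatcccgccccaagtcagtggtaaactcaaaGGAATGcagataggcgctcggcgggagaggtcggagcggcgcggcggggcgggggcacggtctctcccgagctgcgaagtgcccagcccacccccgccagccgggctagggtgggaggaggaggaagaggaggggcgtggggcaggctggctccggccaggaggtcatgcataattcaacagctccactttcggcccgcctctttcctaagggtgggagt
Lats2 internal promoter (chr14:57746074-57746373, minus strand): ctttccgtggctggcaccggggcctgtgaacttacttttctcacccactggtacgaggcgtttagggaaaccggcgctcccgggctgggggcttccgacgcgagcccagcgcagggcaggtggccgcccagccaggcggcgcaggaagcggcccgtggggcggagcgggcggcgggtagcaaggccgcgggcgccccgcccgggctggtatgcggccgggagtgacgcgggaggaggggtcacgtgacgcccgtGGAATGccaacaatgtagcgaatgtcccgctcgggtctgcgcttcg

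Ankrd1, which encodes an ankyrin-repeat protein of the nucleus and sarcomere and is a standard reporter of YAP1 and TAZ activity, had 2 matches before its start. Amotl2, which encodes an angiomotin that binds and retains YAP1, had 1 match. The Tead3 window held 3, 2 of them a few bases apart on the same strand. The Lats2 match lay at an internal start of the gene, and the other Lats2 window had none. The AP-1 letters TGANTCA, looked for on both strands because AP-1 and TEAD factors often share enhancers, were in 0 of the 12 windows, against 7.81% of all promoters. The CCAAT box (CCAAT, both strands) was in 1 of the 12, that of Ankrd1, against 37.4% of all promoters. Most of the 12 windows are rich in G and C. Among the 9008 promoters in a peak that are rich in them, the share was 9.41% for TEAD, 3.30% for AP-1 and 31.9% for the CCAAT box. With so few windows, some of them overlapping, neither a higher nor a lower share than in other promoters can be read from these counts. These matches describe the letters only and were not tested as binding sites.

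The same letters were counted over whole peaks. The 77 member peaks held 0.644 TEAD matches per kb, close to the 0.673 per kb of all peaks and the 0.657 per kb of the other pathway genes described further on. AP-1 matches numbered 0.402 per kb in member peaks and 0.498 per kb in all peaks. Tead4 and Amotl2 had the most TEAD matches per kb of peak, 0.962 and 0.939, while the single peaks of Tead2 and Lats1 had none.

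The deposited values, which the authors called RPKM, were whole multiples of 1 step in each sample and had not been divided by peak width, so they are used here as a score for each peak and compared between genes only per kb. If each library was scaled to 10000000, these steps imply totals of 28259470 to 32559794 counts per sample. All 77 member peaks stood above 3 counts in every sample, and the lowest count in any of them was 6. Old replicate 1 stood apart from the other 3 samples: its median deposited value over all peaks was 13.3, against 16.0 to 18.0, and its peaks held 43.8% of the scale, against 50.3% to 62.9%. Old replicate 2 had 6.52% of its signal on the mitochondrial chromosome, against 13.5% to 15.7% in the others. For tests, each sample was divided by its RLE factor (relative log expression, the median ratio of its peaks to the mean library), which ranged from 0.813 for old replicate 1 to 1.15 for young replicate 2. All 8 MSC markers had a promoter peak, Pdgfra and Ly6a (the genes of CD140a and Sca-1) among them, and their summed RLE-scaled values were 2761 and 3391 in old and 2643 and 2793 in young samples. Of the haematopoietic markers Spi1 had a promoter peak, with values of 8.54 to 13.9, while Ptprc, Cd3e and Itgam had none. Of the endothelial markers 2 of 3 had one (Pecam1 and Tek, not Cdh5), with sums of 38.3 and 39.9 in old and 50.8 and 56.4 in young samples. The pair went opposite ways, Pecam1 with 11.2 and 11.9 in old against 6.30 and 7.72 in young samples and Tek with 27.1 and 28.1 against 50.1 and 43.0. The part of such cells in the results below was not tested. Sums over the 3 epithelial markers were 42.6 and 45.7 in old and 37.7 and 38.8 in young samples, with Cdh1 lacking a peak. The higher old sum came from Krt5, with 36.1 and 36.0 in old against 29.2 and 27.0 in young samples. Epcam did not share it, with 6.45 and 9.76 in old against 9.62 and 10.7 in young samples. Those of the 3 erythroid and the 3 muscle markers overlapped between the age groups, with no promoter peak at Hbb-bs or Pax7.

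The genes differed widely in how much open chromatin they carried. Tead1, the longest at 227490 bp (chr7:112679318-112906807), had 27 peaks with a summed width of 99.7 kb, the first and last of which run past its ends. Of all protein-coding genes, with or without a peak, 1.42% had at least as many. Wwtr1 (chr3:57455649-57575910) had 16 peaks over 43.8 kb, Tead4 (chr6:128224288-128300823) had 10 over 20.8 kb, Yap1 (chr9:7931999-8004596) had 9 over 29.0 kb and Lats2 (chr14:57689662-57758388) had 8 over 39.0 kb. Tead3 (chr17:28331671-28350817) had 3 peaks over 22.5 kb. Tead2 (chr7:45215753-45233644), Lats1 (chr10:7681214-7716460), Amotl2 (chr9:102716672-102733418) and Ankrd1 (chr19:36111961-36120099) had 1 peak each, and in all 4 it covered the start. Of the 77 peaks, 13 were promoter peaks, at most 1 kb from a protein-coding transcript's start, 10 were exonic, 53 intronic and 1 lay upstream of Wwtr1. Of these peaks, 9 also fell within the window of another protein-coding gene and cannot be assigned to the member alone. They include the only peaks of Tead2 (shared with Dkkl1) and Lats1 (shared with Pcmt1). Member peaks were wide, with a median of 2200 bp against 1200 bp for all peaks, and 9 of them (11.7%) reached 8 kb, against 1.56% of all peaks.

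**Figure D1:**
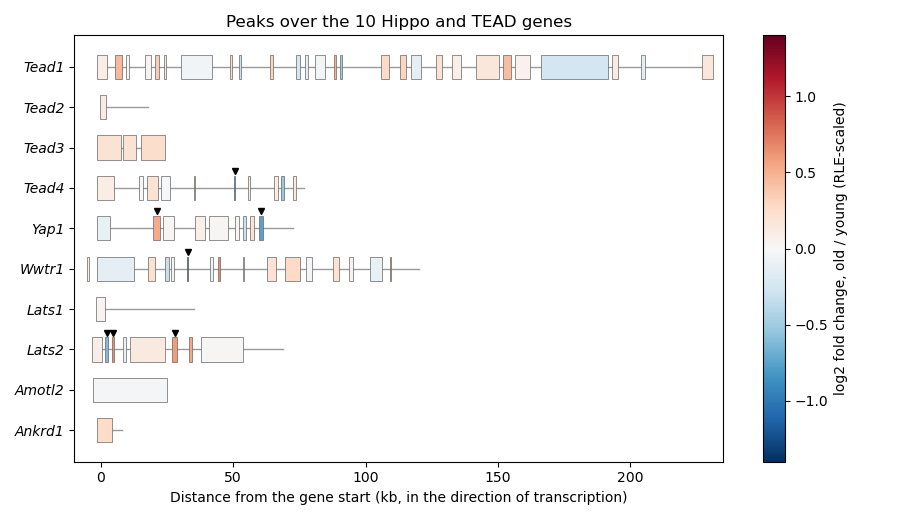
Position of the 77 peaks along the 10 genes. Each box is a peak drawn to scale by its distance from the gene start in kb (x axis), the grey line is the gene, and the colour is the log2 fold change of old over young MSCs after RLE scaling. Black triangles mark the 7 peaks with an unadjusted p under 0.05, all of them intronic, in Tead4, Yap1, Wwtr1 and Lats2.

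Amotl2 lay wholly inside 1 peak of 27700 bp that ran past both ends of the gene, and only 94 of all 117282 peaks were at least as wide. Within Tead1 a peak of 25400 bp lay toward the 3′ end of the gene (chr7:112845601-112871000), singled out here for its width. Its deposited values were 207 and 227 in old and 333 and 300 in young samples, and the fitted log2 fold change was -0.25 ± 0.14 (SE, n = 2 per group; limma adjusted p = 0.386). The old values were below the young ones, yet the interval of the difference ran from -0.55 to 0.04 on the log2 scale.

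Promoter density is the RLE-scaled value per kb, averaged over the 4 samples. For each gene the promoter peak with the highest mean deposited value was ranked, and the kinase gene Lats2 came first. Its peak reached 56.1 per kb, with a range of 52.9 to 59.8 over samples. Of all 16196 promoter peaks of protein-coding genes, 12.0% were denser. Lats2 has a second promoter peak, 13200 bp wide, at an internal start (chr14:57734101-57747300). That peak had only 16.0 per kb in old and 14.6 in young samples, so the first rank holds for the ranked peak alone. The other LATS kinase gene, Lats1, followed at 43.4 per kb (39.7 to 48.5), and its range overlapped that of Amotl2, also at 43.4 per kb (40.2 to 46.0). The coactivator gene Yap1 came next at 37.0 per kb (31.8 to 39.5). The ranges of Yap1, Tead1 at 34.2 per kb (28.7 to 42.9) and Wwtr1 at 27.6 per kb (24.8 to 30.0) overlapped from each gene to the next. Tead4 (22.0 per kb), Tead3 (20.0 per kb), Ankrd1 (19.6 per kb) and Tead2 (17.7 per kb) formed the lower end, and their ranges overlapped from each to the next. The median promoter peak had 27.1 per kb, so the ranked peaks of 4 members, 3 TEAD genes and the target Ankrd1, were below it. Of all promoter peaks, 69.4% were denser than that of Tead2. A second Tead4 promoter peak (chr6:128274801-128278000) was near the median, at 27.1 per kb in old and 27.3 in young samples. The second Tead1 promoter peak (chr7:112760101-112764100) was below it, at 13.7 per kb in both groups.

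None of the 77 member peaks passed the age test (limma with Benjamini-Hochberg adjustment over all peaks, adjusted p under 0.01), where 66 of all peaks or 0.0563% passed. None passed at 0.05 either, where 1316 of all 117282 peaks did. Limma-voom on the recovered counts also called 0, against 144 of all peaks. At an unadjusted p under 0.05, 7 member peaks (9.09%) stood out, 4 lower and 3 higher in old MSCs, against 16.4% of all peaks. After RLE scaling the old samples lay entirely below the young ones at 10 member peaks, or 13.0%, against a background of 24.2%. They were above both at 16, or 20.8%, against a background of 23.2%. Neither share exceeded its background. The values are per library, so fewer cells with an open site and less opening in each cell cannot be told apart.

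The direction of the members as a whole depended on the scaling. On deposited values 64 of 77 peaks (83.1%) had a lower mean in old MSCs, against 74.6% of all peaks, and the median log2 fold change was -0.19, against -0.27 over all peaks. Both old samples were below both young ones at 23 member peaks (29.9%), against 43.5% of all peaks. After RLE scaling, which brings the median over all peaks to 0.0011, the median of the members was 0.098, with 27 peaks lower and 50 higher. The old replicates differed in this. Against young replicates 1 and 2 old replicate 1 had median log2 differences of -0.41 and -0.47 over the members on deposited values, while those of old replicate 2 were 0.097 and 0.039. After RLE scaling, 57 of 77 members (74.0%) in old replicate 2 were above the young mean, against 50.6% of all peaks, while in old replicate 1 it was 39 (50.6%), against 49.4%.

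**Figure D2:**
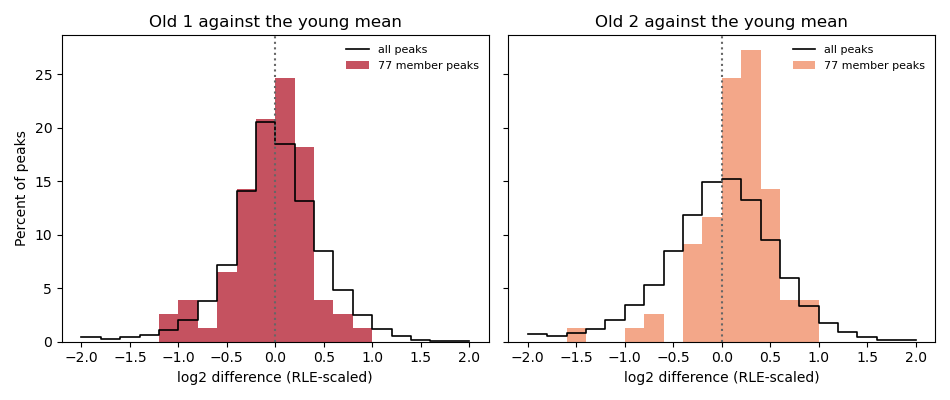
Distribution of the log2 difference of each old sample from the mean of the young samples after RLE scaling, as percent of peaks in bins of 0.2 (y axis). Bars are the 77 member peaks and the black line all peaks, and the member median was 0.0061 in old replicate 1 and 0.19 in old replicate 2.

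The TEAD genes encode the DNA-binding partners of YAP1 and TAZ. The Tead1 promoter peak (chr7:112677901-112681500) had deposited values of 83.9 and 155 in old and 123 and 137 in young samples. The old samples lay on either side of the young ones, and the log2 fold change was 0.10 ± 0.19 (SE; adjusted p = 0.828, limma) with an interval from -0.29 to 0.50. Over the 27 Tead1 peaks none had an unadjusted p under 0.05, and their log2 fold changes ran from -0.50 to 0.49. At the Tead3 promoter peak (chr17:28343301-28352300), which also lies in the window of Tulp1, the values were 137 and 219 in old and 183 and 185 in young samples. The old samples were again on either side, with a log2 fold change of 0.20 ± 0.16 and an adjusted p of 0.566 (limma). The Tead4 promoter peak (chr6:128296001-128302200) had 123 and 132 in old against 132 and 158 in young samples as deposited. After RLE scaling they overlapped (151 and 131 against 124 and 138), and the log2 fold change was 0.10 ± 0.16 with an adjusted p of 0.801 (limma). That of Tead2 (chr7:45215401-45217500) had 30.1 and 40.5 in old against 39.3 and 39.4 in young samples. After RLE scaling its old values were just above the young ones (37.0 and 40.3 against 36.8 and 34.4), with a log2 fold change of 0.11 ± 0.22 and an adjusted p of 0.841 (limma). No TEAD promoter peak passed the test, and the point estimates of the ones named here turned negative on deposited values.

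Tead4 also held a pair of intronic peaks in which both old samples were below both young ones. The first (chr6:128250001-128250600) had 3.50 and 3.99 in old and 6.72 and 13.3 in young samples. The young samples differed from each other by more than the old and young groups did at their nearest, and the log2 fold change of -0.90 ± 0.37 had an adjusted p of 0.238 (limma). The second (chr6:128231701-128232700) had 4.55 and 9.52 in old and 10.6 and 13.9 in young samples, with a log2 fold change of -0.53 ± 0.33 and an adjusted p of 0.451 (limma). Both are weak peaks, of 10 to 41 counts in any sample, and leaving out a sample moved the first between -0.51 and -1.29 and the second between -0.20 and -0.86.

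Yap1 and Wwtr1 encode the coactivators themselves. The Yap1 promoter peak (chr9:8001101-8006200) had deposited values of 164 and 163 in old and 209 and 225 in young samples. Both old values were the lower ones as deposited, but after RLE scaling old replicate 1 (201) was above the young samples (both 196) and old replicate 2 (162) below. The log2 fold change was -0.12 ± 0.15 with an adjusted p of 0.752 (limma) and an interval from -0.44 to 0.20. The Wwtr1 promoter peak (chr3:57563301-57577500), 14200 bp wide, had 287 and 398 in old and 423 and 487 in young samples. Both old samples were also below the young ones after RLE scaling, narrowly (353 and 396 against 397 and 425), and the log2 fold change of -0.14 ± 0.12 had an adjusted p of 0.624 (limma) and an interval from -0.40 to 0.12.

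The lowest adjusted p among the members belonged to an intronic Yap1 peak of 1700 bp (chr9:7943301-7945000), whose centre lies 60446 bp into the gene from its start. Its deposited values were 28.3 and 39.6 in old and 64.8 and 75.5 in young samples. After RLE scaling they were 37.1 ± 3.17 in old and 63.3 ± 3.66 in young MSCs (SD, n = 2 per group), so the groups were apart by several times the spread within them. The log2 fold change was -0.76 ± 0.20 (SE), or 0.592-fold, with an interval from -1.19 to -0.33, an unadjusted p of 0.00162 and an adjusted p of 0.0725 (limma), short of the threshold. By limma-voom the adjusted p was 0.0658. Without old replicate 1 the adjusted p was 0.00546 (limma), where 8.83% of all peaks passed, and without old replicate 2 it was 0.00221 (limma), where 1.43% passed. Without young replicate 1 it was 0.403 and without young replicate 2 it was 0.703 (limma), with log2 fold changes of -0.68 to -0.83 over the 4. With 3 samples the lone one of its group is assumed to vary like the other pair.

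A weak intronic peak of Wwtr1, 400 bp wide (chr3:57543001-57543400), had the largest log2 fold change of the members. Its deposited values were 2.10 and 1.84 in old samples, from 6 counts each, and 9.91 and 5.78 in young samples, from 28 and 17 counts. Both old samples were below both young ones, and the log2 fold change was -1.31 ± 0.42 (SE) with an adjusted p of 0.122 (limma) and an interval from -2.18 to -0.43. The central 300 bases of these Yap1 and Wwtr1 peaks are printed because they carry the largest negative differences at the coactivator genes. They are read from GRCm38.p6 on the strand of the gene, with TEAD and AP-1 letters in capitals.
Yap1 intronic peak, centre (chr9:7944001-7944300, minus strand): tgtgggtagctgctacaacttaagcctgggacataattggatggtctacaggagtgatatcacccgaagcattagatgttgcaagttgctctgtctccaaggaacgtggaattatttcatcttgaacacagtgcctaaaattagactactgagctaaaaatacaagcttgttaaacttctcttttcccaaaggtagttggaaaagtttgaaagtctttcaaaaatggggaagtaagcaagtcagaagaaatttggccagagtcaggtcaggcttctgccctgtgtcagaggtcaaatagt
Wwtr1 intronic peak, centre (chr3:57543051-57543350, minus strand): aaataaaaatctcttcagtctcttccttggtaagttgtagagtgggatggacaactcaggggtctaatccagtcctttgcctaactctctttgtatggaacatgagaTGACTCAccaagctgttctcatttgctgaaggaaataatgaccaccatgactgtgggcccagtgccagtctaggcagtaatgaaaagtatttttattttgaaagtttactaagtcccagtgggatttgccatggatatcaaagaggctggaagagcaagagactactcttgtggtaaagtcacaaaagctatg

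The whole Yap1 peak held no TEAD and no AP-1 match on either strand. The Wwtr1 peak held 1 AP-1 match and no TEAD match. Among all peaks 57.7% held TEAD letters and 52.1% AP-1 letters, but those had a median width of 1200 bp.

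The named peaks of the coactivator genes with higher old values were also intronic. Outside the named ones, an exonic Wwtr1 peak (chr3:57500701-57506500) had higher old values after RLE scaling, with a log2 fold change of 0.28 and an adjusted p of 0.434 (limma). At a Yap1 peak 21046 bp into the gene (chr9:7982101-7985000) the values were 32.9 and 28.6 in old and 24.4 and 26.9 in young samples, with a log2 fold change of 0.53 ± 0.24 and an adjusted p of 0.289 (limma). The old samples lay above the young ones, and the log2 fold change was 0.28 without old replicate 1 and 0.79 without old replicate 2. The order was the same at a weak Wwtr1 peak (chr3:57530801-57531700). There the deposited values were 5.59 and 10.7 in old and 4.25 and 7.48 in young samples, which overlap until RLE scaling, and the log2 fold change of 0.65 ± 0.37 had an adjusted p of 0.397 (limma) and moved between 0.35 and 0.94 on leaving out a sample. The Yap1 gene thus carried peaks with point estimates in both directions.

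The kinase genes differed in their number of peaks. The single peak of Lats1, at its start (chr10:7679401-7682900), had values of 113 and 171 in old and 163 and 167 in young samples, the old ones on either side of the young, and an adjusted p of 0.932 (limma). The Lats2 promoter peak (chr14:57758101-57761800) had 169 and 223 in old and 219 and 224 in young samples as deposited. After RLE scaling the old values were narrowly the higher ones (208 and 221 against 205 and 196), with an interval of the log2 fold change from -0.20 to 0.39 and an adjusted p of 0.780 (limma). At neither gene did the start region pass the test.

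Within Lats2, 4 intronic peaks had old and young samples that did not overlap after RLE scaling and were among those with the largest differences. One centred 2188 bp from the start (chr14:57755601-57756800) had 15.0 and 18.1 in old and 32.9 and 30.3 in young samples, with a log2 fold change of -0.62 ± 0.24 and an adjusted p of 0.215 (limma). Its neighbour, 4638 bp from the start (chr14:57753301-57754200), had the opposite sign, with 20.3 and 27.9 in old and 17.3 and 19.0 in young samples, 0.65 ± 0.25 and an adjusted p of 0.201 (limma). In both, all old samples lay on 1 side of all young samples, yet neither passed the threshold.

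Deeper in the gene, a Lats2 peak 27938 bp from the start (chr14:57729501-57731400) had 41.6 and 83.2 in old and 48.1 and 46.2 in young samples. Old replicate 1 was the lowest of the 4 as deposited and old replicate 2 the highest. After RLE scaling the values were 66.9 ± 22.2 in old and 42.7 ± 3.36 in young samples (SD, n = 2 per group), and the log2 fold change was 0.60 ± 0.23 with an adjusted p of 0.199 (limma). Without old replicate 1 it was 0.94 with an adjusted p of 5.37e-05 (limma), where 8.83% of all peaks passed, and without old replicate 2 it was 0.27 with an adjusted p of 0.521 (limma). A peak at 33788 bp (chr14:57723901-57725300) had 12.6 and 9.52 in old and 8.49 and 9.18 in young samples, with an adjusted p of 0.418 (limma) and log2 fold changes from 0.22 to 0.88 on leaving out a sample. Both of these deeper peaks also lie in the window of the overlapping gene model Gm49361, as do 3 other Lats2 peaks.

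**Figure D3:**
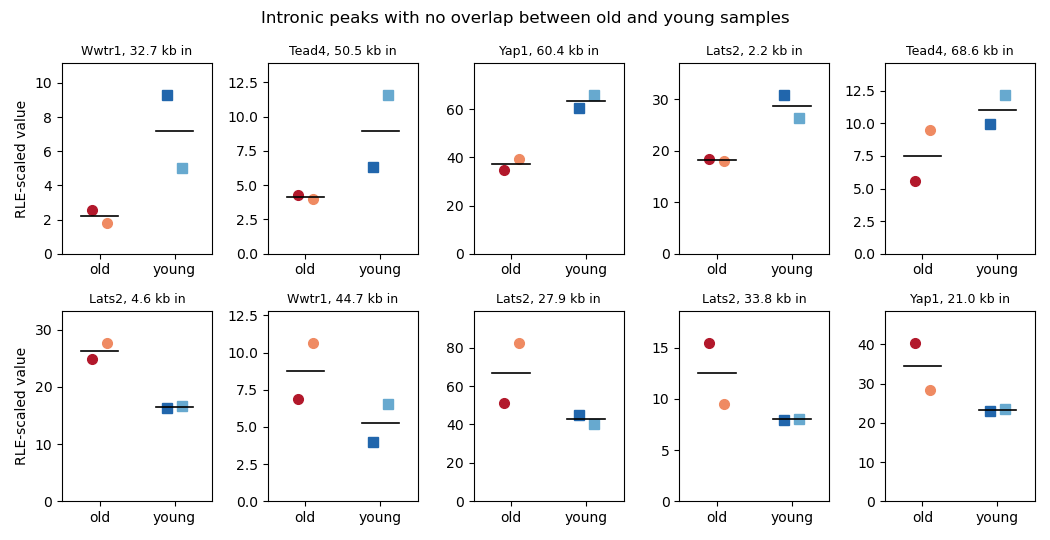
RLE-scaled value (y axis, from 0) of the 10 intronic peaks with the largest differences among those whose old and young samples did not overlap, in old (circles) and young (squares) samples, with the group mean as a bar. The upper row holds the 5 peaks lower and the lower row the 5 higher in old MSCs, titled by gene and distance into it in kb, and the Yap1 peak at 60.4 kb had old values of 34.9 and 39.3 against 60.7 and 65.9.

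The angiomotin gene Amotl2 had the highest deposited value of any member peak, 905 and 1283 in old and 1315 and 1364 in young samples (chr9:102713801-102741500). Old replicate 1 was the lowest, and after RLE scaling the values (1114 and 1273 against 1233 and 1191) overlapped. Its log2 fold change of -0.025 ± 0.096 had the narrowest interval of the promoter peaks, from -0.23 to 0.18, and an adjusted p of 0.928 (limma). The target Ankrd1 had 109 and 107 in old and 96.3 and 125 in young samples at its promoter peak (chr19:36116001-36121600). These overlapped, and the log2 fold change was 0.27 ± 0.18 with an adjusted p of 0.489 (limma) and an interval from -0.11 to 0.64.

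Summing the peaks of each gene gave 1 level per gene and sample, tested over all 17308 protein-coding genes with a peak. Of the 10 members 0 passed at an adjusted p under 0.01 (limma), where 2 genes or 0.0116% passed, and 0 had an unadjusted p under 0.05, where 8.83% of genes did. Tead3 had the largest difference relative to its error, with RLE-scaled sums of 553 and 704 in old and 533 and 527 in young samples. These sums include its promoter peak, which also lies in the window of Tulp1. Both old sums exceeded both young ones, and the log2 fold change of 0.23 had an interval from -0.064 to 0.53 and an adjusted p of 0.631 (limma). As deposited the sums were 435 and 725 in old and 578 and 599 in young samples, and the direction turned, to -0.067. Without old replicate 1 it was 0.40 with an adjusted p of 0.000421 (limma), where 19.9% of genes passed. Its exonic peak over the 3′ part of the gene (chr17:28326701-28335500), which also lies in the window of Rpl10a, went from 0.25 to 0.54 without that sample, with an adjusted p of 1.25e-05 (limma).

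The intervals of the other sums hold under RLE scaling only, and on deposited values the log2 fold changes of these genes were -0.35 to -0.021, several of them outside the interval. Those of Wwtr1 were 847 and 908 in old and 858 and 897 in young samples, a log2 fold change of -0.00064 with an interval from -0.25 to 0.25. Yap1 sums were 639 and 559 in old and 592 and 643 in young samples, with an interval from -0.32 to 0.23, and Lats2 sums 815 and 906 against 804 and 770, with an interval from -0.13 to 0.38. For Tead1 the interval ran from -0.23 to 0.27, for Amotl2 from -0.25 to 0.23 and for Ankrd1 from -0.13 to 0.69. Tead2 had the widest error, an SE of 0.20 around 0.13, and Tead4 and Lats1 had log2 fold changes of 0.087 and 0.051.

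**Figure D4:**
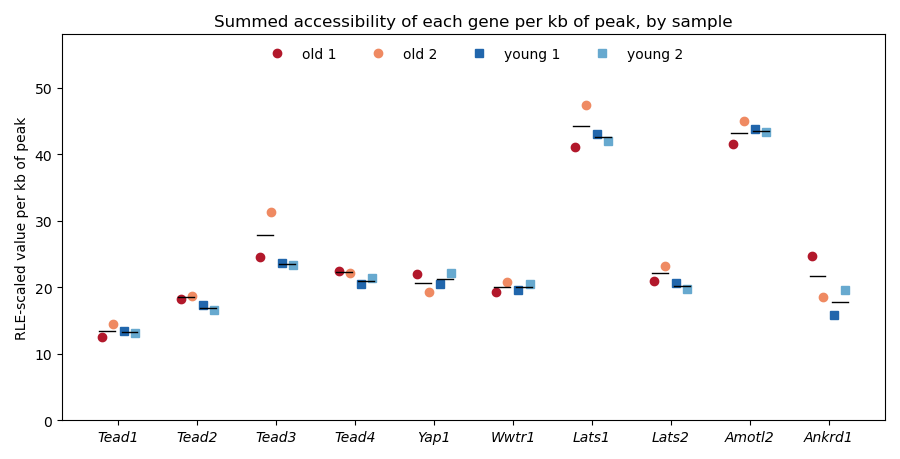
Summed RLE-scaled value of each gene per kb of its peaks (y axis, from 0) in the 2 old (circles) and 2 young (squares) samples, with the group mean as a bar. Lats1 and Amotl2 had the highest sums per kb, at 41.0 to 47.4, and Tead1 the lowest, at 12.5 to 14.5. Old replicate 2 stood above the other samples at Tead3.

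Across protein-coding genes, the strongest promoter peak most like that of Yap1 over the 4 samples was that of Got2, at a Euclidean distance of 0.0241 on the log2 scale, followed by Tmem231 and Pawr. For Wwtr1 the nearest were Hbp1, at 0.0573, Cemip2 and Mat2a. The measure covers 4 samples and 15334 genes.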

How the data were processed

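ATAC-seq was analysed in 2 old and 2 young MSC samples. Per the labels, the authors mapped reads to mm10 with Bowtie2 and used Picard. The methods name chromstaR for peaks of hypoxia- and normoxia-cultured cells and do not describe the old and young samples separately. The authors deposited 1 score per peak and sample, which they named RPKM, made from reads counted in peaks and scaled to the library and written with decimal commas. It is called a score here because the values are whole multiples of a step in each sample (100% within 0.01) and are not divided by peak width. Genes came from GENCODE vM21 (GRCm38), and promoter sequences from RefSeq.

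Peaks and genes were tested two-sided with limma 3.58.1 in R 4.3.3 (trend and robust moderation) on log2(value / RLE factor + 1), which understates changes of weak peaks, with Benjamini-Hochberg adjustment over all peaks or genes and a threshold of 0.01. Errors are SE or SD as stated and intervals cover 95%. The limma step was tested on simulated data. The members and gene lists were chosen with earlier results of these data known. Named are the strongest promoter peak of every gene, then the 5 lower and the 5 higher peaks of largest change whose groups do not overlap. Other pathway genes were named from a fixed list or for an adjusted p under 0.05. Alternatives were deposited values, quantile and equal-total scaling, a pseudocount of 0.1 or 5, removal of weak peaks, plain moderation, a replicate block, limma-voom, a threshold of 0.05, a window of 2 kb, promoter peaks alone and leaving out each sample. Summaries used Python 3.11.15. One marker gene is not reported here.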

Additional observations from a re-analysis of the deposited data

How the results depend on the processing

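None of the member peaks passed under any of the 12 alternatives that kept all samples, although the calls over all peaks ranged from 0 to 1385. Not all of these were separate checks. The window of 2 kb and promoter peaks alone only select among the same member peaks, so they could not add a call. With plain moderation 0 of all peaks passed, so that setting cannot tell members from other peaks. Leaving out 1 sample gave 0 to 3 member peaks, 0 to 1 member genes, 0 to 23 peaks of other pathway genes and 0 to 2 of the named peaks, highest without old replicate 1, where 8.83% of all peaks and 19.9% of genes passed, and a threshold of 0.05 gave 1 pathway peak. Same-numbered samples deviated with a correlation of -0.0993 over all peaks, so the numbers gave no sign of pairing. With the replicate block, 0 member peaks, 0 member genes and 0 pathway peaks passed. Over all features the block raised the calls, from 66 to 1269 peaks and from 2 to 66 genes. The median of the members, -0.19 as deposited, was 0.098 with RLE, 0.090 with quantile normalization and 0.17 at equal total signal, and -0.43 to 0.067 on leaving out a sample, above 0 only without old replicate 1. The pathway median went from -0.21 to 0.062, 0.082 and 0.13 under these scalings and ranged from -0.34 to -0.048 on leaving out a sample. On deposited values 7 of the named promoter peaks changed sign, Tead1 to -0.18, Tead2 to -0.17, Tead3 to -0.088, Tead4 to -0.18, Lats1 to -0.25, Lats2 to -0.19 and Ankrd1 to -0.021. At equal total signal that of Amotl2 changed to 0.044. Leaving out a sample turned 5 of the named promoter peaks, whose values then ranged from -0.17 to 0.39 for Tead1, -0.0047 to 0.22 for Tead4, -0.28 to 0.049 for Yap1, -0.096 to 0.18 for Lats1 and -0.11 to 0.069 for Amotl2, always with an old sample left out. The cause was not tested. With 2 samples per group, differences anywhere within the printed intervals remain possible, and peaks of few counts have the widest intervals.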

Other observations

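The other genes of the pathway were taken from a list of 46, grouped by role, and all 46 had a peak, 453 in total. None of the 453 peaks passed the age test (limma, adjusted p under 0.01), limma-voom also called 0, and 65 (14.3%) had an unadjusted p under 0.05, 22 lower and 43 higher in old MSCs, against 16.4% of all peaks. At an adjusted p under 0.05 (limma) there was 1, against 1316 of all 117282 peaks. This peak lay in an intron of Ptpn14, which encodes a phosphatase that binds YAP1 (chr1:189761201-189763000). Its deposited values were 21.0 and 36.2 in old and 15.2 and 15.3 in young samples, and the log2 fold change was 1.09 ± 0.26 (SE, n = 2 per group; limma adjusted p = 0.0495). On deposited values it was 0.82 with an adjusted p of 0.122 (limma). The median over the 453 peaks was 0.062 after RLE scaling and -0.21 as deposited.

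Of the 32 peaks of the core kinase genes, 3 were lower and 3 higher at an unadjusted p under 0.05 (18.8%). The promoter peaks of Stk3 and Stk4, which encode the MST kinases, had adjusted p-values of 0.982 and 0.684 (limma), and that of Sav1 had 0.862 (limma). Of the 173 peaks of upstream regulators 7 were lower and 13 higher (11.6%). The promoter peak of Nf2, which encodes the scaffold merlin, had deposited values of 95.1 and 173 in old and 143 and 143 in young samples. The 22 peaks of TEAD cofactors had 1 in each direction (9.09%). Their promoter peaks included that of Vgll3, with deposited values of 504 and 504 in old and 604 and 679 in young samples (adjusted p = 0.862, limma). After RLE scaling, 0 of the 8 Vgll3 peaks had both old samples below both young ones. The Vgll4 promoter peak at chr6:114914401-114922800 had deposited values of 170 and 226 against 191 and 204 (adjusted p = 0.340, limma).

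Of the 226 peaks of target genes 11 were lower and 26 higher at an unadjusted p under 0.05 (16.4%, the share of all peaks). Dock5, which encodes a guanine nucleotide exchange factor for Rac, is named here after its values were seen, since 9 of its 24 peaks (37.5%) were higher and 0 lower at that level. The matricellular targets Ccn1 and Ccn2 each lay within 1 peak. Ccn1 had deposited values of 934 and 1507 in old and 1227 and 1372 in young samples, with a log2 fold change of 0.16. Ccn2 had 216 and 341 against 367 and 370 as deposited, which overlapped after RLE scaling, with a log2 fold change of -0.15. The adjusted p-values were 0.501 and 0.629 (limma), and that of the promoter peak of Axl, a receptor tyrosine kinase, was 0.780.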
